A study of Mus musculus with 11 samples.

Results

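Autosomal MNase peaks of Smchd1 that lie away from every protein-coding gene are described here. They were the rows of the deposited MNase peak list on chromosomes 1 to 19 that overlapped no coding gene body and lay more than 5 kb from every boundary of a coding gene (RefSeq, mm10), outside the 4 Hox clusters. This left 1158 peaks, or 40.9% of the 2828 autosomal peaks in a list of 2840, and they are called far peaks below. Of the other autosomal peaks, 881 lay within 5 kb of a coding gene boundary, 630 lay inside coding gene bodies and 159 lay in the Hox clusters.

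The peaks came from chromatin immunoprecipitation with an antibody to GFP in neural stem cell lines made from C57BL/6 E14.5 embryos and passaged up to 20 times. The MNase experiment, in which formaldehyde-fixed chromatin was cut with micrococcal nuclease, held 1 male and 1 female library from cells homozygous for a knock-in allele that fuses Smchd1 to GFP. It also held 1 male and 1 female library from wild-type cells without the tag, pulled down with the same antibody, and 1 female whole cell extract library. A second experiment, used here only for comparison, fragmented fixed chromatin of female cells by 30 min of sonication, with 2 libraries each from knock-in cells, wild-type cells and whole cell extract. Each experiment was deposited as 1 pooled list of positions with no value per library, so depth and the spread between libraries are unknown, and male and female cells cannot be told apart. Tests below compare peaks within a list. Peaks are not replicates, and intervals cover counting error only.

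Smchd1 is a non-canonical protein of the SMC family, which also holds the cohesin and condensin subunits that shape chromosomes. It is best known for its part in keeping genes on the inactive X silent, and it acts at some imprinted clusters and other autosomal gene clusters. Sequence between genes can hold enhancers, which act on promoters from afar, and start sites of long non-coding RNA (lncRNA) genes. It also holds genes transcribed by RNA polymerase III, such as those of transfer RNA (tRNA), and repeated sequence.

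Start sites of lncRNA genes at far peaks were rich in CpG, the base pair step at which mouse DNA is methylated. RefSeq start windows of 300 bases, from 250 before to 50 after an annotated start, were matched by gene ID and position (GRCm38.p6, the assembly of mm10), and 14 lncRNA genes had a window that overlapped a far peak. The windows held a median of 10.5 CpG (range 2 to 40), and 7 of 14 (50%) held at least 10. Among the 5326 lncRNA genes whose windows were far from coding genes by the same rule, the median was 3 and 7.94% held at least 10. The 2 sets were picked differently where a gene had several windows. The 14 are those with most peak overlap, without a rule on their own distance, and the 5326 are the far windows with the lowest coordinate. Of the 14 windows, 7 lay wholly inside 1 far peak, with a median of 21 CpG. The rest overlapped a peak by 15 to 256 bases, and that of Gm26901, with 18 CpG, spanned 2 touching peaks. The following 5 of the 7 wholly inside a peak show the range, printed 5′ to 3′ on the strand of the gene, with every CpG in capitals. Gm38882 (chr6:117879383-117879682, plus strand) had 40 CpG, the most, and a GC content of 69.7%. Gm13652 (chr2:75137926-75138225, minus strand) and 2600014E21Rik (chr2:75137405-75137704, plus strand) start on opposite strands under the same peak, with 23 and 21. Tbx3os2 (chr5:119691169-119691468, minus strand), an antisense neighbour of the T-box gene Tbx3, had 12. Gm40720 (chr10:82177886-82178185, plus strand) had 2, the fewest.
Gm38882: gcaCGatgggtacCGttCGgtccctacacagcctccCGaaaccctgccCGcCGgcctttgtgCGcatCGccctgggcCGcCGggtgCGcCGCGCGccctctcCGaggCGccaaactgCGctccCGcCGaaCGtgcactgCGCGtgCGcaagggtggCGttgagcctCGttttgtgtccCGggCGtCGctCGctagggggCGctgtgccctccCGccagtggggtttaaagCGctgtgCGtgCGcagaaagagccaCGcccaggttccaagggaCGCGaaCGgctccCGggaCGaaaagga
Gm13652: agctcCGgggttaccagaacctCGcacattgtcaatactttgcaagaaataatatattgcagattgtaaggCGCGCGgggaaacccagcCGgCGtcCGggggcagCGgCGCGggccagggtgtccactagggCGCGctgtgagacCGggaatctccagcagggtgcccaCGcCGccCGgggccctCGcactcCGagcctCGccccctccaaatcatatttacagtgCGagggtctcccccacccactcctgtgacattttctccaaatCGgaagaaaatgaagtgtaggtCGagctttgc
2600014E21Rik: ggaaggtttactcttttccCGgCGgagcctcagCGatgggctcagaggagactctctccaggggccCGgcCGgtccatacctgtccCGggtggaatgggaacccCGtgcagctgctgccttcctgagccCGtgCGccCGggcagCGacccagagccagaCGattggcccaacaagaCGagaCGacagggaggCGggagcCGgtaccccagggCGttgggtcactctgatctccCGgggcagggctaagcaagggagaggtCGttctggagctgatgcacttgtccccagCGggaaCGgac
Tbx3os2: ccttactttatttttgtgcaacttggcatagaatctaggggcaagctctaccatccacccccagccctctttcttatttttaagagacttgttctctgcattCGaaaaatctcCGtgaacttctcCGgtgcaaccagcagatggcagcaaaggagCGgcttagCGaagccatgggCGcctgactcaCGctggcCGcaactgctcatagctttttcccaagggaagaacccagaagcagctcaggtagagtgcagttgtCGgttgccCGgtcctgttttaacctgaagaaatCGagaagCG
Gm40720: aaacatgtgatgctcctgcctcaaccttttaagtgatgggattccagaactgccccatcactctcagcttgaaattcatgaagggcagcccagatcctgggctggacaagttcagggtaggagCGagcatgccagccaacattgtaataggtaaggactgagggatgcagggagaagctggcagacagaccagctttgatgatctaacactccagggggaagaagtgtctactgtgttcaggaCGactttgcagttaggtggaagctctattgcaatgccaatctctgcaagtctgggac

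The peak over Gm38882 was 900 bp wide and lay 6.38 kb from the zinc finger gene Zfp239. The peak shared by Gm13652 and 2600014E21Rik was 1050 bp wide and 261 kb from Mtx2, a gene of mitochondrial import beyond the HoxD cluster. The one over Tbx3os2 was 750 bp wide and 6.28 kb from Tbx3, and the one over Gm40720 was 1350 bp wide. The other windows wholly inside a peak belonged to Gm36445, with 28 CpG under a peak of 1050 bp, and Gm36764, with 5 under a peak of 600 bp. The letters CCCTC, the core of the motif of the insulator protein CTCF, were found on either strand (as CCCTC or GAGGG) in 8 of the 14 windows (57.1%) and in 55.1% of the 5326 far lncRNA windows, so the shares were close. A match of these letters describes the sequence and not a bound site.

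Far peaks were mostly narrow. They started on a grid of 150 bp with a smallest width of 300 bp, and 647 (55.9%) had that width, 257 measured 450 bp, 131 measured 600 bp and 45 were at least 1050 bp wide. Their median width was 300 bp and their mean 453 bp ± 353 (SD, 1158 peaks), with a maximum of 6.15 kb. They made up 29.9% of all bases in autosomal MNase peaks. Of the far peaks, 511 were wider than 300 bp, a share of 44.1% (95% Wilson interval 41.3% to 47.0%), where 61.9% of all autosomal peaks were.

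The share of wider peaks was lower among far peaks than in either of the other classes. It was 59.4% inside gene bodies, 15.2 percentage points higher than among far peaks (Fisher's exact test, two-sided, adjusted p = 1.55e-09 over 4 comparisons). At coding gene boundaries it was 80.7%, which is 36.6 points higher (adjusted p = 1.53e-64 by the same exact test). Far peaks within 50 kb of a coding gene were wider than 300 bp in 60.3% of cases. That was close to the share of all gene-body peaks (adjusted p = 0.794, Fisher's exact test), which were not limited by distance. With both classes more than 50 kb from every coding gene boundary, the contrast remained. The shares were then 35.7% far and 49.2% in gene bodies (adjusted p = 9.53e-05, Fisher's exact test). With 10 kb they were 41.8% and 55.7%. With wider taken as over 450 bp, 21.9% of far peaks and 26.5% of peaks in gene bodies counted, and the difference no longer passed the adjusted test (p = 0.0619, Fisher's exact test).

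**Figure D1:**
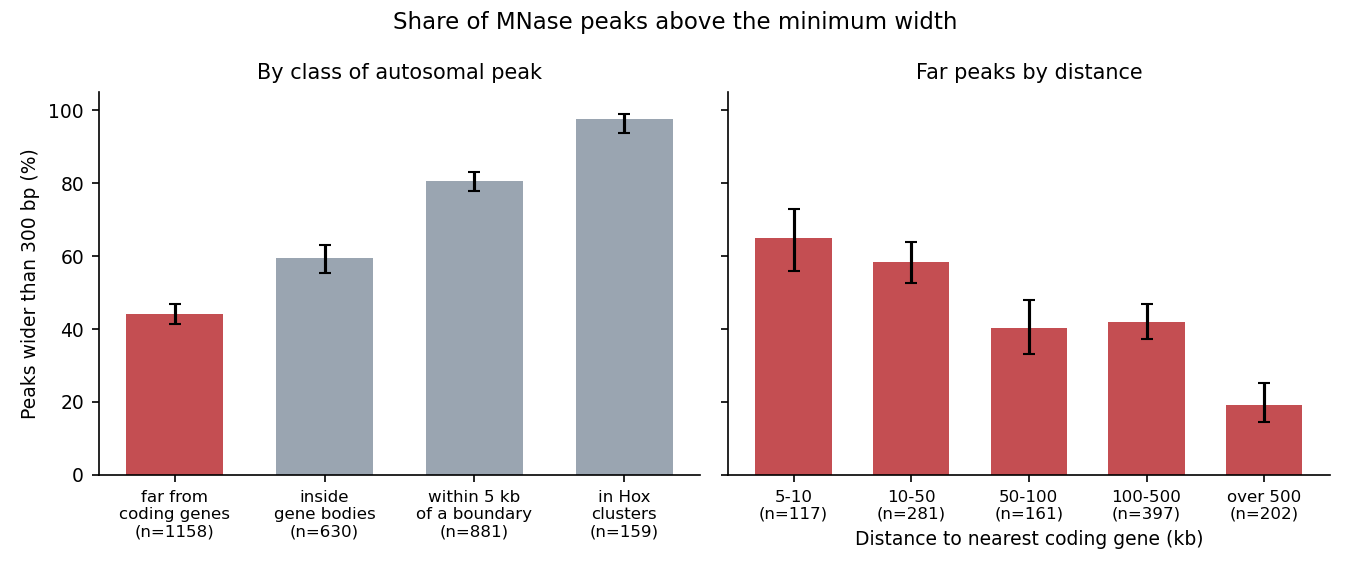
Bars give the percentage of MNase peaks wider than 300 bp in each class of autosomal peak (left) and among far peaks by distance to the nearest coding gene in kb (right), with 95% Wilson intervals and the number of peaks. Far peaks have the lowest bar on the left at 44.1%, and on the right the bars run from 65% at 5 to 10 kb to 19.3% beyond 500 kb.

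The share of wider peaks was lower far from genes than near them, and density had no such order. Far sequence covered 1281 Mb, or 53.3% of the autosomes, and held 0.904 far peaks per Mb. Density was 1.21 per Mb at 5 to 10 kb from a coding gene, 0.815 at 10 to 50 kb, 0.883 at 50 to 100 kb, 0.871 at 100 to 500 kb and 1.00 beyond 500 kb. The share wider than 300 bp was 65% in the nearest of these ranges (117 peaks), 58.4% in the next (281 peaks), 40.4% at 50 to 100 kb (161 peaks), 42.1% at 100 to 500 kb (397 peaks) and 19.3% beyond 500 kb (202 peaks). The median distance was 109 kb, with quartiles at 26.0 and 349 kb, and 74 peaks were over 1 Mb from any coding gene.

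Of the 5 most remote peaks, 4 had an adhesion gene as their nearest coding gene, and for 3 of these it was the same gene. The share of equally remote sequence nearest to such genes was not worked out. The farthest, chr18:27984901-27985200, was 2230 kb from Celf4, a gene of RNA processing in neurons. Next came 3 peaks 2085 to 2228 kb from the protocadherin gene Pcdh20 on chromosome 14 and a peak 2048 kb from the cadherin gene Cdh20 on chromosome 1. All of these were 300 or 450 bp wide. At the 5 kb limit, the first peaks outside were at Abt1 (5010 bp), Irx2 (5104 bp) and Dlx6 (5183 bp), and the last inside were at Cadps2 (4972 bp), Kctd8 (4941 bp) and Mbnl1 (4900 bp).

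Far peaks were spread over all 19 autosomes. Density ran from 0.598 per Mb of far sequence on chromosome 17 (exact 95% Poisson interval 0.397 to 0.864) to 1.31 on chromosome 13 (1.06 to 1.61). On chromosome 13, 54 of 92 far peaks (58.7%) were wider than 300 bp, below the shares on chromosomes 15 (65.7%) and 9 (62%). Chromosome 1 held the most far peaks, 106, of which 30 were wider than 300 bp.

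**Figure D2:**
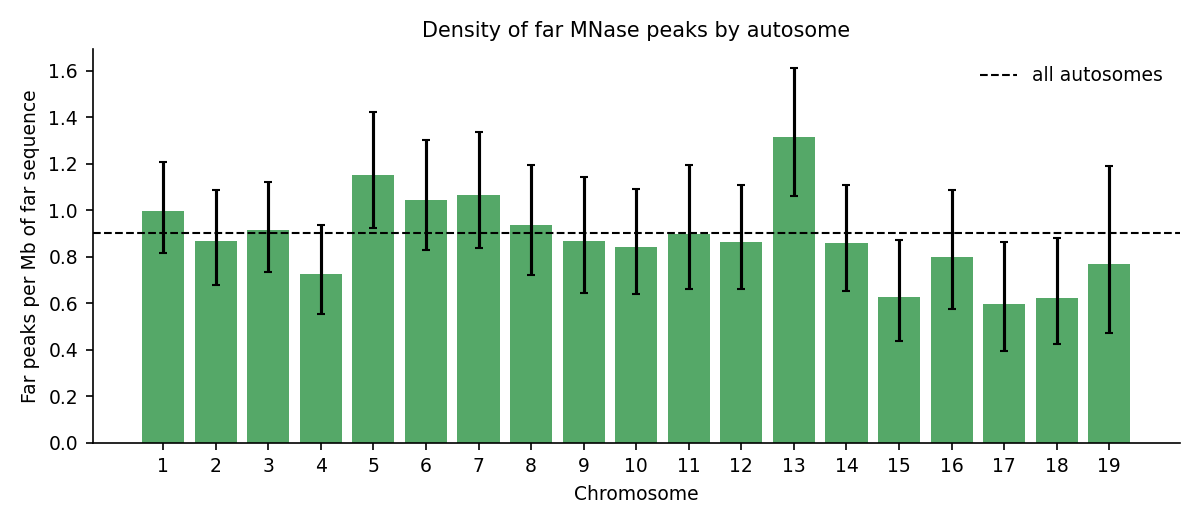
Bars give far peaks per Mb of sequence more than 5 kb from coding genes on each autosome, with exact 95% Poisson intervals, and the dashed line is the value over all autosomes. Chromosome 13 is highest at 1.31 per Mb, and chromosomes 15, 17 and 18 are lowest at 0.629, 0.598 and 0.625.

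Genes of developmental transcription factors were the nearest coding genes of 133 far peaks, a share of 11.5% (95% Wilson interval 9.77% to 13.5%), while 3.95% of far sequence was nearest to them. Such genes encode proteins that set up cell identity in the embryo, and many are silent targets of Polycomb in cells of other lineages. The list was chosen with earlier results of these data known, so these shares are a description only. It held 295 autosomal coding genes, of which 59 were nearest to a far peak, 33 of them to a single peak and 14 to at least 3. The median width of these 133 peaks was 450 bp, where that of all far peaks was 300 bp, and 64.7% were wider than 300 bp.

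The share with such a neighbour rose with peak width. It was 7.26% among 647 peaks of 300 bp, 10.1% among 257 of 450 bp, 18.3% among 131 of 600 bp, 25.6% among 78 of 750 or 900 bp and 35.6% among 45 of at least 1050 bp (95% Wilson interval 23.2% to 50.2%). Of the 16 such peaks in the widest class, 8 flanked a Hox cluster. Without far peaks within 100 kb of a Hox cluster the shares were 7.13%, 9.09%, 13.8%, 21.6% and 21.6% (8 of 37, 11.4% to 37.2%), so the 2 widest classes were level. The share also differed by distance. For all far peaks, median distance to the coding gene fell from 180 kb at 300 bp to 23.6 kb in the widest class. Whether the share rose with width at equal distance was not tested. At 5 to 10 kb from a coding gene, 32.5% of far peaks had a transcription factor gene nearest, where 2.00% of the sequence did, and at 10 to 50 kb the values were 19.6% and 3.09%. Beyond that the shares came near those of the sequence: 5.59% and 4.26% at 50 to 100 kb, 6.30% and 5.12% at 100 to 500 kb, and 2.97% and 3.40% beyond 500 kb. Without the far peaks within 100 kb of a Hox cluster the overall share was 9.72%, and with neighbouring far peaks up to 100 kb apart counted as 1 group it was 7.70%, 71 of 922 groups.

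**Figure D3:**
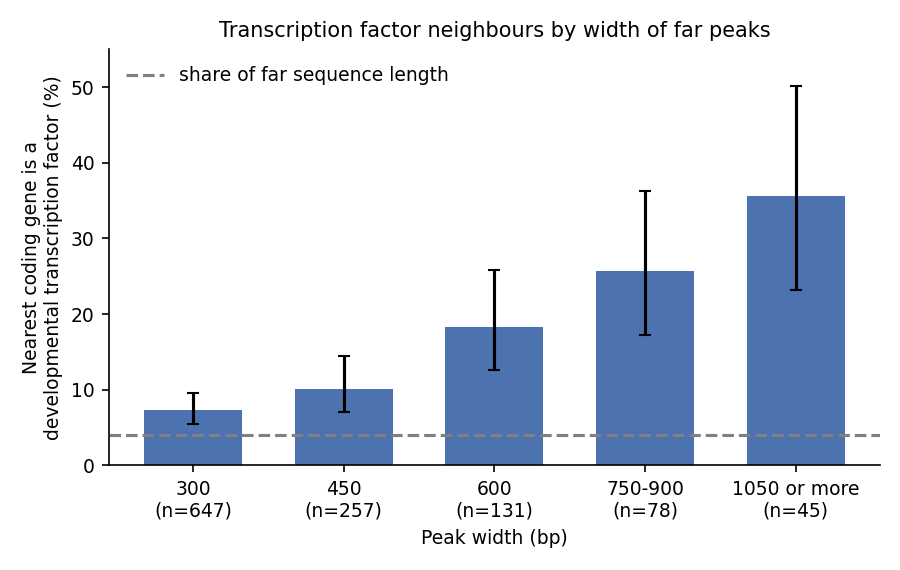
Bars give the percentage of far peaks of each width whose nearest coding gene is a developmental transcription factor, with 95% Wilson intervals, and the dashed line is the share of far sequence nearest to such genes, 3.95%. The bars run from 7.26% for peaks of 300 bp to 35.6% for peaks of at least 1050 bp, a class that falls to 21.6% without Hox flanks. Over the same classes the median distance to the nearest coding gene falls from 180 to 23.6 kb. The gene list was chosen with earlier results of these data known.

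Most of these genes also carried MNase peaks of their own. Of the 133 far peaks next to a transcription factor gene, 112 (84.2%) had a nearest gene with another MNase peak overlapping it or within 5 kb, where 57.3% of the far sequence next to listed genes had such a neighbour. For the 1025 far peaks next to other genes the share was 21.5%, and 16.2% of the sequence. An MNase peak of another class lay within 100 kb of 66.9% of the 133 and of 7.71% of the 1025. The 133 also lay closer to their nearest coding gene, with a median of 18.8 kb where that of the 1025 was 126 kb. No share of sequence was worked out for the 100 kb measure.

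Nr2f2, which encodes an orphan nuclear receptor of the COUP-TF family, was the nearest coding gene of 13 far peaks, more than any other gene. The gene spans chr7:70351946-70366746. Of its far peaks, 11 lay at lower coordinates and 2 at higher, and 11 stood within 38 kb of it. A run of 6 peaks between 70330651 and 70335750 measured 450, 900, 600, 450, 750 and 300 bp, in order of position, and 2 closer ones measured 750 and 1050 bp. The lncRNA gene Gm29683, from 70178868 to 70337852, overlapped 7 of these peaks, and B130024G19Rik on the other side overlapped 2. The remaining peaks of Nr2f2 lay 178 kb (1050 bp wide) and 386 kb (300 bp wide) away.

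Flanks of the Hox clusters, which encode homeobox factors of the body axis, held several of the widest far peaks. Between Hoxa13, a gene of distal limb identity at the end of HoxA, and Evx1, a homeobox gene of spinal interneurons, 12 far peaks covered 40.5% of 40.4 kb (chr6:52266751-52307100). Those nearest to Hoxa13 measured 2100, 5850, 600, 750, 1500, 1050 and 600 bp in order of position, and those nearest to Evx1 600, 600, 750, 600 and 1350 bp. Every one of the 12 was above the smallest width. The first overlapped Hottip, an lncRNA of the distal HoxA genes.

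Far peaks flanked HoxC on both sides and HoxD on neither. Beyond Hoxc4, 6 far peaks measured 450, 450, 450, 1050, 900 and 2250 bp, the last of them 48.5 kb from the gene, and the lncRNA gene Gm30528 overlapped 4. Beyond Hoxc13, a gene of hair and nail development, the 4 far peaks measured 600, 900, 2100 and 600 bp. In all, 13 far peaks lay within 100 kb of HoxA, 10 of HoxC, 3 of HoxB and 0 of HoxD. These counts leave out peaks at or inside coding genes beside the clusters. The length of far sequence in each flank was not worked out.

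**Figure D4:**
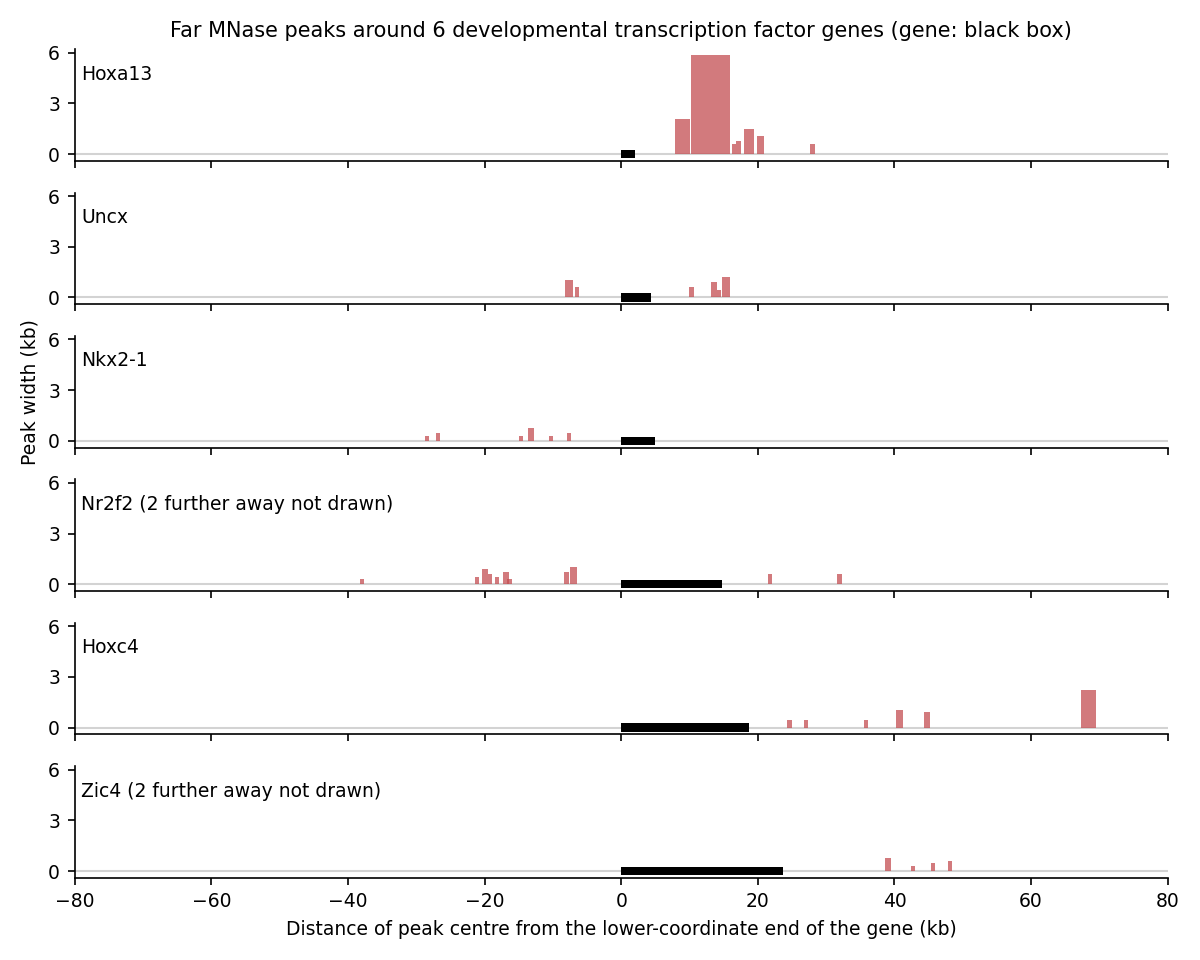
Each row shows the far peaks nearest to 1 transcription factor gene, placed by the distance of the peak centre from the lower-coordinate end of the gene in kb, with peak width in kb as bar height and the gene as a black box; narrow bars are drawn at least 0.6 kb wide, and the 2 most distant peaks of Nr2f2 and of Zic4 are not drawn. Peaks of Hoxa13 reach 5.85 kb on 1 side only, those of Uncx stand on both sides within 10.5 kb of the nearer gene boundary, and those of Nkx2-1 all lie at lower coordinates.

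Other homeobox and zinc finger genes had compact groups. Uncx, a homeobox gene of somites and neurons at chr5:139543865-139548179, had 6 far peaks of 450 to 1200 bp, 2 at lower and 4 at higher coordinates, all within 10.5 kb. Nkx2-1, which patterns the ventral forebrain, thyroid and lung, had 6 of 300 to 750 bp, all on the lower side between 7.43 and 28.3 kb, and all overlapped the lncRNA gene Sfta3-ps. Zic4, a zinc finger gene of the dorsal neural tube, had 6 of 300 to 750 bp on the higher side. Of these, 4 stood within 24.1 kb, and the lncRNA gene Gm29478 overlapped 5. These groups differ in side and spacing. Their widest peak, of 1200 bp at Uncx, was narrower than the widest beside HoxA, of 5850 bp, though several peaks there were narrower than 1200 bp.

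More loosely placed were the peaks of Zfhx4 (5, from 8.57 to 423 kb), Hand2, a heart and limb factor (4, from 5.38 to 92.5 kb), Satb1, a chromatin organiser (4, from 97.6 to 239 kb), and Isl1, a LIM homeobox gene of motor neurons (4, from 96.6 to 596 kb). Onecut2, a cut homeobox gene, had 2 far peaks, the wider of 1500 bp at 5.33 kb. Pax9, a paired-box gene of pharynx and teeth, and Tbx18, a T-box gene of the heart and urinary tract, had 3 each, all wider than 300 bp. Of the 59 genes, 15 had no other MNase peak within 5 kb. Among these were Satb1, Barhl2, with far peaks of 450 and 1050 bp, and Neurod2, with 1 of 750 bp.

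Imprinted genes, which are expressed from a single parental copy, were nearest to 21 far peaks, or 1.81% (95% Wilson interval 1.19% to 2.76%), and 0.513% of far sequence was nearest to them. The 21 peaks fell to 10 of 51 listed autosomal genes and had a median width of 450 bp. They were not independent sites. Most of the 21 fell to genes on the same chromosome, Ndn (5), Magel2 (3), Mkrn3 (2), Peg12 (3) and Snrpn (2). Whether the share would exceed that of sequence without these genes was not tested. From chr7:62361301 to 62543250, in the part of the Prader-Willi region that holds Ndn, Magel2, Mkrn3 and Peg12, 9 far peaks of 300 to 600 bp were spread over 182 kb. The lncRNA gene Gm32061 overlapped 4 of them. Ndn, which encodes the growth suppressor necdin, had 5 far peaks, among them 3 neighbours of 300, 450 and 900 bp about 120 kb away. At lower coordinates of the same chromosome, Snrpn, a splicing gene expressed from the paternal copy, had 2 beyond its higher boundary, of 1200 bp at 42.3 kb and 600 bp at 172 kb. On chromosome 15, Kcnk9, a potassium channel gene expressed from the maternal copy in brain, had 1 of 1350 bp at 19.6 kb.

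Adhesion and synapse genes, many of which border long gene deserts, were nearest to 114 far peaks, or 9.84% (95% Wilson interval 8.26% to 11.7%), where the sequence gave 8.46%. The interval holds the sequence share. Their median width was 300 bp and only 21.9% were wider. Pcdh20 was nearest to 8 far peaks from 144 to 2228 kb away, and Cdh11, a cadherin of mesenchyme, and Slitrk6, a neuronal transmembrane gene, to 7 each. In each of these 3 groups the widest peak measured 450 bp. The widest in the list, of 1050 bp (chr2:98662051-98663100), lay 1030 kb from Lrrc4c, a netrin-G ligand gene, and the next, of 900 bp, 1392 kb from the teneurin gene Tenm3. The widest at Epha4, an ephrin receptor gene, and at Pcdh9 measured 600 bp.

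Receptor gene families of smell stood near their share of sequence. Olfactory receptors were nearest to 19 far peaks (1.64%, with 1.32% of sequence), led by peaks at Olfr1368 (900 bp, over 2 tRNA genes) and Olfr1066 (750 bp), and vomeronasal receptors to 9 (0.777%, with 1.16%), led by Vmn1r238 (600 bp). The clustered protocadherins, adhesion proteins that give neurons individual surface codes, had 2 far peaks of 600 and 900 bp, both about 25 to 26.4 kb before Pcdha1 at the edge of the cluster on chromosome 18. They were 0.173% of far peaks (95% Wilson interval 0.0474% to 0.628%), with 0.00471% of sequence. The 2 are close neighbours (36903301 to 36903900 and 36904051 to 36904950), and the interval counts them as independent. Neural stem cell genes had 1 (0.0864%, with 0.442% of sequence), of 450 bp, over the lncRNA gene Sox2ot and 14 kb from Sox2, a pluripotency and neural stem cell factor, and glia genes had 1 (0.0864%, with 0.0323% of sequence), of 600 bp, 56.8 kb from the water channel gene Aqp4. Neuron genes and housekeeping genes had 0 of 1158, which allows a share of up to 0.259%. These last 2 lists were nearest to just 0.0653% and 0.0237% of far sequence.

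**Figure D5:**
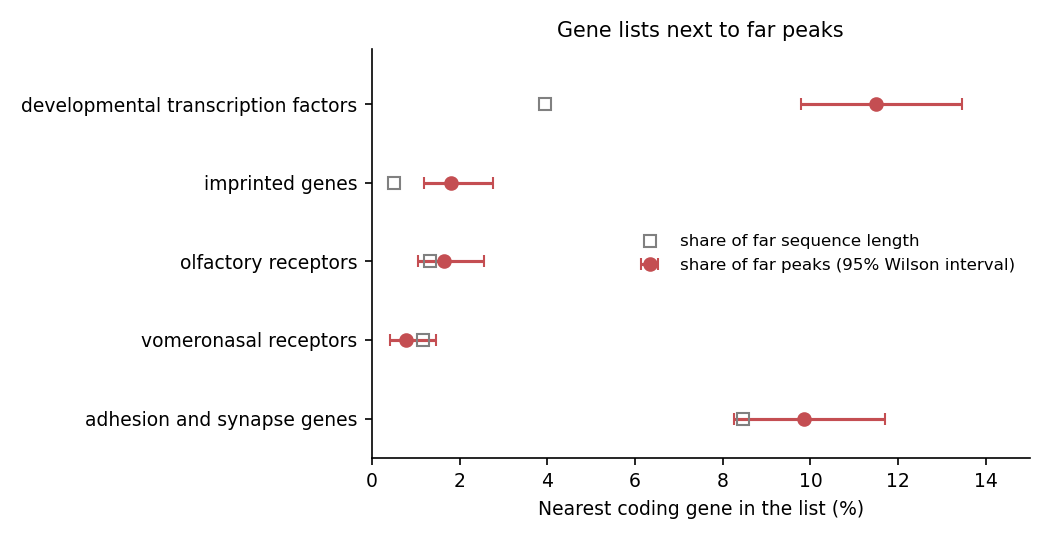
Circles give the percentage of the 1158 far peaks whose nearest coding gene is in each list with at least 5 such peaks, with 95% Wilson intervals, and squares give the percentage of far sequence nearest to the same genes. Developmental transcription factors and imprinted genes stand apart from their squares at 11.5% and 1.81%, and the intervals of the other 3 lists hold theirs. Most peaks of imprinted genes fall to neighbouring genes of the Prader-Willi region, and the interval counts them as independent.

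Non-coding genes were overlapped by 218 far peaks, or 18.8% (95% Wilson interval 16.7% to 21.2%), where they covered 14.7% of far sequence. Among far peaks wider than 300 bp the share was 25.6%. With predicted genes left out it was 7.69%, with 4.16% of sequence covered. The 218 peaks touched 195 non-coding genes, 25 of which held at least 2 peaks and 111 of which had only a predicted-gene name. By type, 181 peaks overlapped an lncRNA gene. Besides those named above, the ones with most peaks were 2700069I18Rik beside Zfhx4, Gm30340 and Gm36740 with 3 each. Gm26901 had 2, as did Pantr1, a lncRNA of neural progenitors that adjoins the POU factor gene Pou3f3. No microRNA gene was overlapped. Mir9-2, a microRNA gene of neural progenitors named here after its values were seen, lay 1765 bp from a far peak of 450 bp and 3115 bp from one of 300 bp, in the region beyond the neuronal transcription factor gene Mef2c.

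Genes of tRNA, which carry amino acids to the ribosome, were the non-coding type most often near far peaks for the sequence they occupy. The centres of 24 far peaks lay within 1 kb of a tRNA gene, a share of 2.07% (95% Wilson interval 1.40% to 3.07%), where 0.0342% of far sequence did. Overlap was seen for 16 far peaks, which together overlapped 23 tRNA genes, and 15 of the 16 were wider than 300 bp, with a median of 600 bp and a range of 300 to 1050 bp. On chromosome 13, 9 of these peaks held 14 tRNA genes, in the large histone and tRNA region that includes Trim27, Abt1 and the histone gene H4c8. The peak at 21169651 to 21170250 overlapped 3, of which 1 was annotated for methionine and 2 for leucine. On chromosome 1, a peak of 1050 bp (171102001 to 171103050) near Cfap126 also overlapped 3, for aspartate, glycine and glutamate.

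The share of tRNA genes under a peak was similar far from coding genes and at their boundaries, though the difference was not tested. Of 266 tRNA genes far from coding genes, 23 overlapped a peak (8.65%, 95% Wilson interval 5.83% to 12.6%), and of 104 within 5 kb of a coding gene boundary 7 did (6.73%, 3.30% to 13.2%), so the intervals overlapped. Inside coding gene bodies it was 0 of 16. As a share of peaks, 1.38% of far peaks (16 of 1158), 0.568% of boundary peaks (5 of 881) and 0 of 630 peaks in gene bodies overlapped a tRNA gene. Without chromosome 13 the far share was 5.14%, 9 of 175 genes. No far peak overlapped a gene of small nucleolar, small nuclear or microRNA. The centres of 5 lay within 1 kb of a small nuclear RNA gene, or 0.432%, where 0.0839% of far sequence did.

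The widest far peak of all, 6.15 kb on chromosome 17 (39842851 to 39849000), covered the ribosomal RNA pseudogene Rn18s-rs5 and overlapped an end of the lncRNA gene AY036118. A group of 4 far peaks of 900 to 2100 bp (chr8:123625351-123631950) began 3.30 kb beyond an array of 48 annotated ribosomal RNA genes, and none of those 48 genes overlapped a peak of the list. Wide peaks without an annotated gene under them were found 114 kb from Gm2244 on chromosome 14 (3900 bp) and 137 kb from Parp8 on chromosome 13 (2400 bp), the latter in a group of 5 that covered 57.1% of 9.45 kb. On chromosome 9, 6 peaks of 450 to 900 bp stood between 2999851 and 3032700, where the assembled sequence begins, and 303 to 334 kb from Alkbh8. The labels do not say how reads that map to several places were treated. The part of repeated sequence was not tested in these peaks or in any other far peak, among them those that lead the gene lists above.

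Further wide far peaks, some with other far peaks close by, lay near the zinc finger gene Zfp958 (2850 bp, over the lncRNA Gm6410), Begain (1650 bp), Rgs8 (1500 bp), Rybp, whose product is a Polycomb partner (1500 bp, 99.7 kb away), and Septin9 (1500 bp, over the lncRNA Gm34418). On chromosome 19 the widest, of 1200 bp, was 10.8 kb from Lbx1, a homeobox gene of muscle precursors and dorsal spinal neurons.

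Most far peaks had no other far peak within 100 kb. Another far peak lay within 100 kb of 372 (32.1%, 95% Wilson interval 29.5% to 34.9%) and within 10 kb of 203 (17.5%). Counting neighbours of their own class, peaks in gene bodies gave a like share, 32.7%, at 100 kb. At boundaries the share was 49.5%. Joined at gaps up to 100 kb, the 1158 peaks formed 922 groups, 786 of them single peaks and 13 with at least 5, which held 86 peaks.

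The sonication list shared few of these sites. Of the 1158 far peaks, 8 overlapped a sonication peak, or 0.691% (95% Wilson interval 0.350% to 1.36%), where 1.66% of all autosomal MNase peaks did. The share was 0.952% in gene bodies and 1.36% at boundaries, and neither difference passed the test (adjusted p = 0.580 and 0.230, Fisher's exact test). Counting a sonication peak within 5 kb, the shares of 1.99% for far peaks and 4.54% at boundaries did differ (adjusted p = 0.00152, Fisher's exact test). Of 1646 autosomal sonication peaks, 974 were far from coding genes by the same rule, and 7 of those (0.719%) overlapped a far MNase peak.

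By nearest gene, 6 of the 8 shared sites fell to imprinted or transcription factor genes, with Snrpn and Nr2f2 giving 2 each. Among all far peaks, these lists were nearest to 1.81% and 11.5%, and the difference was not tested. Both lists were chosen with earlier results of these data known. Near Kcnk9, an MNase peak of 1350 bp held the whole of a sonication peak of 300 bp. Snrpn had 2 shared sites, with MNase and sonication widths of 1200 and 750 bp at the nearer and 600 bp in both lists at the other. At Irx2, an Iroquois homeobox gene, the MNase peak of 1200 bp and the sonication peak of 1350 bp shared 1050 bp. Nr2f2 had 2, of which the nearer (750 bp, with a sonication peak of 900 bp) lay 16.5 kb and the other (300 bp, with 450 bp) 386 kb from the gene. The remaining 2 were on chromosome 2, 52.8 kb from the cytoskeletal scaffold gene Frmd4a and 17.2 kb from the predicted gene Gm40035. No far peak lay in either of the authors' 2 autosomal broad domains of enrichment, on chromosomes 12 and 13. These domains span 0.385 and 1.43 Mb and held 0 and 1 MNase peaks of any class, so a count of 0 says little about far peaks.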

How the data were processed

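The study profiled 11 ChIP-seq libraries, grouped by their titles. The submitters' processing notes list bcl2fastq, Bowtie 0.12.9, MACS2 and mm10, but not what each was used for, and the type column of the MNase list names SeqMonk. The authors deposited peak boundaries in base pairs, with an empty value column, and a score per broad domain, which was not used here. No column was left unmapped. The planned fallback of a count test could not be run, so width stood for strength. Members and gene lists were chosen with earlier results of these data known.

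Genes came from a RefSeq table of mm10 (49555 records, 21761 coding); 388 records that end in the unassembled first 3 Mb were dropped. The table gives spans without exons or introns. Each far peak was assigned its nearest coding gene, and the share of far sequence nearest to the same genes, or covered by the same features, served as background. Shared means an overlap of at least 1 bp. Shares were compared with two-sided Fisher's exact tests in scipy 1.17.1, with Benjamini-Hochberg adjustment over 4 tests. Scripts were checked on simulated data.

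Genes named were those at the 15 widest, the 5 most remote and the 3 peaks on each side of the 5 kb limit, the 10 coding and 10 non-coding genes with most far peaks, shared peaks, the 5 largest groups, up to 4 genes of each of 10 lists and the widest peak per chromosome. Genes of tRNA, Mir9-2, Mef2c and further transcription factor genes were named after their values were seen. Some genes the rule selects are not described.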

Additional observations from a re-analysis of the deposited data

How the results depend on the processing

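No paired analysis was possible because the lists are pooled and hold no value per library, and no library could be left out for the same reason. Of 45 alternative values, 32 kept their direction and their side of the threshold, or stayed within the interval of the reported share. The width contrast with gene bodies was no longer seen when only far peaks within 50 kb of a coding gene were kept (60.3% wider, against 59.4%), an alternative chosen after seeing the data, as were those without Hox flanks and without chromosome 13. Gene-body peaks were not limited by distance in that alternative. With a limit of 50 kb for both classes the contrast stayed, at 35.7% far and 49.2% in gene bodies. With over 450 bp as wider it fell short of the threshold at 21.9%. Sharing with the sonication list within 5 kb, 1.99%, passed against boundary peaks. The share next to transcription factor genes was 16.8% for peaks wider than 300 bp, 9.13% with a limit of 10 kb, 5.26% with 50 kb (95% Wilson interval 3.89% to 7.09%, which holds the 4.52% of sequence), 7.70% with far peaks up to 100 kb apart joined and 9.72% without Hox flanks. Among peaks of at least 1050 bp it was 21.6% without Hox flanks. Overlap with non-coding genes was 25.6% for peaks wider than 300 bp and 7.69% without predicted genes. Neighbours within 10 kb gave 17.5%, and tRNA genes without chromosome 13 5.14%. Depth per library is unknown, so a site without a peak may have been below detection.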
